A study of Mus musculus with 31 samples.

Results

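The 5 genes described here are Akr1c18, Tnnc1, Panx2, Pls3 and Kctd4, out of 20436 genes in each count table. They were chosen from the mRNA counts because their level differed from wild type, in the same direction, in both groups of mice deficient in Fmr1: 4 were lower (Akr1c18, Tnnc1, Pls3 and Kctd4) and 1 was higher (Panx2). Their mRNA values against wild type, and every ratio built on that mRNA, are therefore the basis of the choice and are given as a description. The ribosome footprint libraries were not used in that choice and were tested. The genes were, however, chosen with earlier results of these data known, so the test may not be fully independent of the choice. All 5 genes passed the filter on low counts in both assays.

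The messenger RNA of a gene sets how much template there is, and the fragments of it that ribosomes shield from nuclease, called footprints, count the ribosomes engaged in translating it. The ratio of the second to the first is the translational efficiency (TE). Fmr1 encodes FMRP, an RNA-binding protein best known as a brake on translation in neurons, whose loss causes fragile X syndrome. Rps6kb1 encodes S6 kinase 1 (S6K1), a kinase downstream of mTORC1 that phosphorylates ribosomal protein S6.

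Cortex from mice aged 29 to 34 days was profiled in 4 genotypes: wild type (WT), deficient in Fmr1 (called FXS), deficient in Rps6kb1 (called S6K1) and deficient in both (DKO). There were 16 polyadenylated mRNA libraries, 4 per genotype, with each genotype once in each of the 4 labelled batches, 5 to 8. There were 15 footprint libraries in batches 1 to 4, from 4 WT, 5 FXS, 3 S6K1 and 3 DKO samples, spread unevenly: batch 1 held S6K1 and DKO only, batch 2 had no DKO and batch 4 had no S6K1. The labels give no strain, allele, sex or number of animals per sample, and do not say whether any animal gave both kinds of library, so p-values measure only the spread between these samples.

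Total counts ran from 12134624 to 17267368 per mRNA library and from 16633416 to 34853751 per footprint library. Levels are in CPM, counts scaled to a common library total with TMM factors, and are compared between genotypes, not between genes. Fmr1 went with the labels in every library, its mRNA being 10.6 to 22.1 CPM in FXS and DKO against 55.6 to 82.6 CPM in WT and S6K1, and its footprints 7.03 to 12.8 against 104 to 159 CPM. Rps6kb1 did so in every footprint library, at 7.62 to 12.8 CPM in S6K1 and DKO against 26.1 to 36.3 CPM in WT and FXS. Its mRNA was lower than WT by edgeR in S6K1 (log2 -0.47, adjusted p = 0.0217) and DKO (-0.50, adjusted p = 0.00228). Across batches its libraries overlapped, at 28.2 to 43.7 CPM in S6K1 and DKO against 39.5 to 55.5 CPM in WT and FXS. Within each of the 4 mRNA batches, however, S6K1 and DKO were both below WT and FXS. Rps6kb1 mRNA thus went with the labels within batches, though not by its level alone. Transcripts of 4 Y-linked genes were counted in all 16 mRNA and all 15 footprint libraries. The defining genes of excitatory neurons, cortical layers, interneurons and glia were all detected in every genotype, and so were those of striatum, hippocampus and thalamus. The tissue is whole cortex, so these libraries cannot show which cells held the 5 transcripts, and the description of them as neuronal was not tested. For the same reason fewer cells of a type and less RNA per cell cannot be told apart.

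RefSeq (GRCm38.p6, the mm10 build the files use) has a promoter entry for 3 of the 5 genes, from 250 bases before to 50 bases after the annotated start. They are shown because these 3 genes were lower together in both groups lacking Fmr1, so that a reader can see whether they share letters there. Akr1c18 is at chr13:4150597-4150896 on the minus strand, Tnnc1 at chr14:31208062-31208361 on the plus strand, and Pls3, the first of its 3 entries, at chrX:75875133-75875432 on the minus strand. Lower case marks plain sequence and capitals mark a match to a searched motif, each read 5′ to 3′ along the gene's strand.
Akr1c18: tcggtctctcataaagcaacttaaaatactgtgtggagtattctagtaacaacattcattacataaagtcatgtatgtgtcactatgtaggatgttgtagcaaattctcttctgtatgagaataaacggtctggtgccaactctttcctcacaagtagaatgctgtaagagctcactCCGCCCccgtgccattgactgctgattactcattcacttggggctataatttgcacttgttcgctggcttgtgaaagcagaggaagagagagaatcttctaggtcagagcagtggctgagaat
Tnnc1: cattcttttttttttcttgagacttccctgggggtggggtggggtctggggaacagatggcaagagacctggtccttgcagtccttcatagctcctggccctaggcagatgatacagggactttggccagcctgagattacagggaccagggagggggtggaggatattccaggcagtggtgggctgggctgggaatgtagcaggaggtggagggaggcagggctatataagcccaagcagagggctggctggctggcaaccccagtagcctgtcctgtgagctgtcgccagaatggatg
Pls3: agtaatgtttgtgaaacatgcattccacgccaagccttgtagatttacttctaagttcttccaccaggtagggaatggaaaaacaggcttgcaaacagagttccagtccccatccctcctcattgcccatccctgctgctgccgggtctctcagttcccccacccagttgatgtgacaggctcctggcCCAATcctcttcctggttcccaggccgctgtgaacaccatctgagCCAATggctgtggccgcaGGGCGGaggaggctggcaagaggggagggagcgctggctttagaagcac
The 5 motifs searched on both strands were the TATA box with the letters TATAAA, the GC box with the letters GGGCGG, the CCAAT box named for its letters, the E-box with the letters CACGTG and the cyclic AMP response element with the letters TGACGTCA. The E-box and the cyclic AMP element read the same on both strands. Akr1c18 held 1 GC box, on the opposite strand and so printed as CCGCCC, Pls3 held 1 GC box and 2 CCAAT boxes, and Tnnc1 held no match to these letters. Only these exact letters were counted, so a near match, such as tatataag in the Tnnc1 window, was not marked. Of 32841 promoter windows of this length, 35.7% held a GC box, 37.4% a CCAAT box, 13.6% a TATA box, 7.15% an E-box and 1.79% the cyclic AMP element. No motif was present in all 3 windows, which says only that these letters are not shared there.

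The mRNA of Akr1c18, which encodes the enzyme that converts progesterone to its inactive 20-alpha-hydroxy form, had the largest difference among the 5 genes. The gene lies at chr13:4132615-4150646. In batches 5, 6, 7 and 8 its mRNA was 7.94, 8.05, 5.50 and 6.96 CPM in WT and 2.77, 3.07, 2.64 and 2.64 CPM in FXS. It was 6.56, 6.01, 4.63 and 5.21 CPM in S6K1 and 3.40, 3.10, 2.94 and 3.74 CPM in DKO. Every FXS and DKO library lay below every WT and S6K1 library, while the FXS and DKO ranges overlapped with each other, as did those of WT and S6K1. Of all genes tested, 3.34% had FXS and WT ranges that did not overlap and 6.15% had such DKO and WT ranges, in either direction. The means were 7.11 ± 1.18 CPM in WT (SD, n = 4), 5.60 ± 0.85 in S6K1 (n = 4), 3.30 ± 0.35 in DKO (n = 4) and 2.78 ± 0.20 in FXS (n = 4). These rest on 37 to 116 reads per library. The log2 difference from WT was -1.34 ± 0.17 (SE) in FXS and -1.10 ± 0.16 in DKO, and within the 4 batches it ran from -1.52 to -1.06 and from -1.37 to -0.90.

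**Figure D1:**
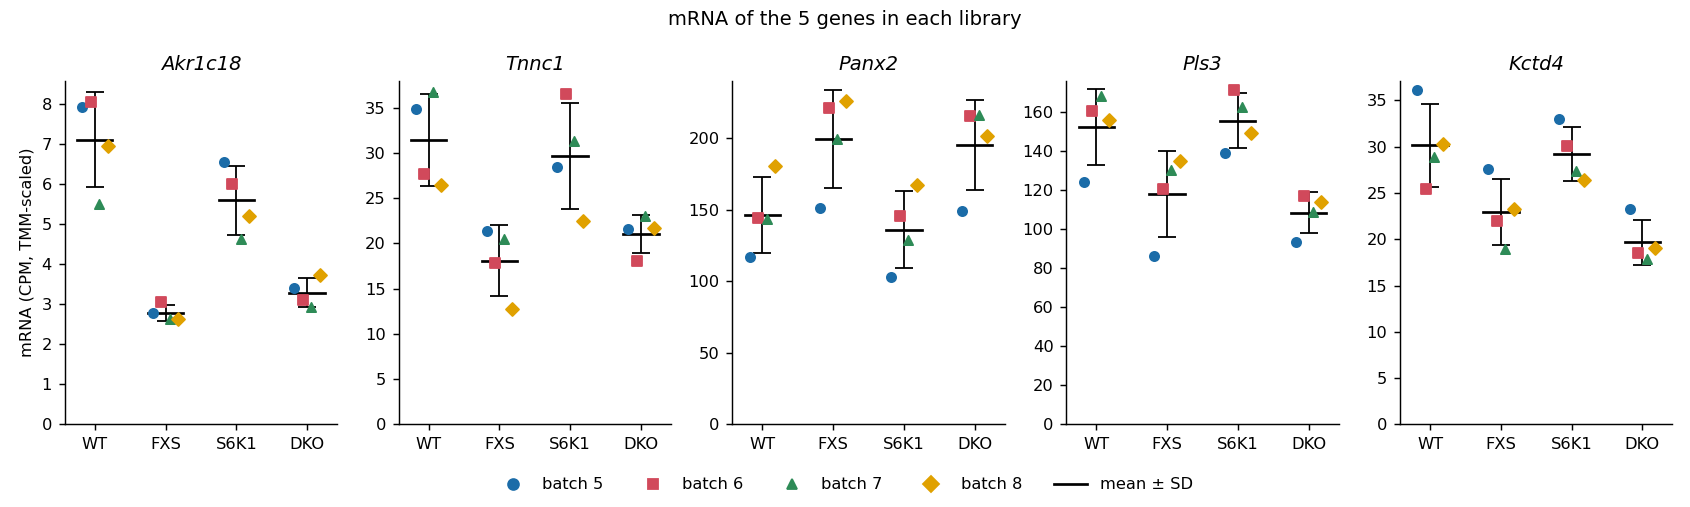
mRNA level (vertical axis, TMM-scaled CPM from 0) of each gene in the 16 mRNA libraries, by genotype; symbols mark the batch and black lines the mean and SD of 4 libraries. Akr1c18, Tnnc1, Pls3 and Kctd4 sit lower and Panx2 higher in FXS and DKO than in WT; the batch 5 libraries are the lowest of their genotype for Panx2 and Pls3 and the highest for Kctd4.

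Footprints of Akr1c18 were spread more widely. They were 5.25 CPM (batch 2), 7.19 (batch 3) and 7.32 and 7.57 (batch 4) in WT, and 2.28 and 5.80 (batch 2), 6.33 (batch 3) and 2.60 and 5.10 (batch 4) in FXS. They were 8.64, 6.55 and 6.98 CPM in S6K1 (batches 1, 2 and 3) and 7.88, 6.14 and 4.38 CPM in DKO (batches 1, 3 and 4). Of the 5 FXS libraries, 2 lay within the WT range (5.80 and 6.33 CPM) and 3 lay below it. Batches 2 and 4 each held a lower and a higher FXS library. The log2 difference of FXS from WT was -0.62 ± 0.25 (SE), with a 95% interval from -1.15 to -0.09 and an adjusted p of 0.420 by edgeR's quasi-likelihood test, so it did not pass; it was negative in 3 of 3 batches. DKO differed from WT by -0.44 ± 0.30 (95% interval -1.09 to 0.20, adjusted p = 0.451) and was lower in both batches that held both genotypes. S6K1 differed from WT by -0.13 ± 0.31 (95% interval -0.79 to 0.54) and was not called.

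Akr1c18 belongs to a cluster of related genes. Any reads shared between copies could have been assigned to either, which was not examined, so its absolute level is uncertain. Of 8 relatives in the table, Akr1c14 was the 1 that passed the filter, at 1.67 CPM in WT mRNA. Akr1c14 differed from WT by -0.45 in FXS (adjusted p = 0.714) and by -1.04 in DKO (adjusted p = 0.183), neither of which passed. Akr1c6, Akr1c20 and Akr1cl had 0 reads in all libraries.

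Tnnc1 (chr14:31208312-31211729) encodes the slow skeletal and cardiac form of troponin C, a calcium-binding EF-hand protein. It was the 1 gene of the 5 whose footprints also passed the test. Its mRNA in batches 5 to 8 was 34.8, 27.7, 36.7 and 26.5 CPM in WT and 21.3, 17.9, 20.4 and 12.7 CPM in FXS. In S6K1 it was 28.5, 36.6, 31.3 and 22.5 CPM, and in DKO 21.6, 18.04, 23.0 and 21.7 CPM. All FXS and DKO libraries were below all WT libraries, and the S6K1 range overlapped that of WT. The mRNA difference from WT was -0.80 ± 0.12 (SE, log2) in FXS and -0.56 ± 0.12 in DKO, the smallest within-batch difference being -0.63 and -0.29.

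Tnnc1 footprints were 26.3 (batch 2), 29.5 (batch 3) and 22.3 and 35.5 CPM (batch 4) in WT. In FXS they were 14.7 and 14.4 (batch 2), 10.6 (batch 3) and 17.4 and 13.2 CPM (batch 4). Every FXS library was below every WT library, as for 1.74% of the 13953 genes tested in either direction. The means were 28.4 ± 5.55 CPM in WT (SD, n = 4) and 14.1 ± 2.48 CPM in FXS (n = 5). With batch in the fit, footprints of Tnnc1 fell to 49.7% of WT. The log2 change was -1.01 ± 0.16 (SE, 95% interval -1.35 to -0.67, edgeR adjusted p = 0.0229), and it was negative in 3 of 3 batches, from -1.48 to -0.85. Among the 5 genes 1 was called in this comparison, against 0.165% of all genes tested. The authors' deposited table gives Tnnc1 a footprint log2 fold change of -1.01 in FXS with an adjusted p of 7.23e-07.

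That call was near the threshold. Leaving out 1 library kept the Tnnc1 footprint change between -1.14 and -0.90, but the adjusted p passed 0.05 without FXS replicate 1 (0.0513), FXS replicate 3 (0.0896), FXS replicate 4 (0.0689), FXS replicate 5 (0.101), WT replicate 2 (0.0741) or WT replicate 4 (0.0835). Without the batch term it was 0.0947.

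In DKO, Tnnc1 footprints were 22.9, 16.3 and 22.1 CPM (batches 1, 3 and 4), and in S6K1 24.5, 21.8 and 28.3 CPM (batches 1, 2 and 3). DKO lay between FXS and WT and overlapped both. The DKO difference from WT was -0.50 ± 0.19 (SE, log2, 95% interval -0.92 to -0.09, edgeR adjusted p = 0.225), and DKO differed from FXS by 0.50 ± 0.19 (95% interval 0.09 to 0.92, adjusted p = 0.762). Neither passed, so a change in DKO and a difference between DKO and FXS were both undecided at this sample number. S6K1 differed from WT by -0.15 ± 0.20 (adjusted p = 0.897).

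Pls3 (chrX:75785653-75875182) encodes plastin 3, which bundles actin filaments. Its mRNA in batches 5 to 8 was 124, 160, 168 and 156 CPM in WT and 86.5, 120, 130 and 135 CPM in FXS. In S6K1 it was 139, 171, 163 and 149 CPM, and in DKO 93.5, 117, 109 and 114 CPM. DKO lay below WT and S6K1 with no overlap, whereas the highest FXS libraries passed the lowest WT library, which came from batch 5. The batch 5 library was the lowest of its genotype for Pls3 in all 4 genotypes. Taken within batches, FXS was lower than WT in 4 of 4, by 0.21 to 0.52 on the log2 scale, and DKO in 4 of 4, by 0.41 to 0.63. The fitted differences were -0.37 ± 0.07 (SE) and -0.48 ± 0.07.

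Pls3 footprints were 350, 375, 351 and 362 CPM in WT (batches 2, 3, 4 and 4). In FXS they were 294 and 243 (batch 2), 353 (batch 3) and 236 and 279 CPM (batch 4). In DKO they were 373, 355 and 342 CPM (batches 1, 3 and 4), and in S6K1 553, 354 and 345 CPM (batches 1, 2 and 3). Only the batch 3 FXS library reached the WT range, and the DKO libraries were level with WT. The FXS difference of -0.35 ± 0.10 (log2, 95% interval -0.57 to -0.13) did not pass (edgeR adjusted p = 0.248), and it was negative in 3 of 3 batches. The DKO difference was -0.18 ± 0.13 (95% interval -0.45 to 0.09, adjusted p = 0.469). The value of 553 CPM in S6K1 came from batch 1, which held no WT library. S6K1 as a whole differed from WT by 0.02 ± 0.13 (adjusted p = 0.976).

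Pls3 is the 1 gene of the 5 on the chromosome of Fmr1, 67 tested genes and 7.068 Mb away. Its nearest tested neighbours, Brcc3, Vbp1 and Rab39b on one side and Tbl1x, Prkx and Prrg1 on the other, were not called in FXS or DKO mRNA. Of the 66 tested genes between Fmr1 and Pls3, 1 was called higher and 0 lower in FXS mRNA by edgeR, which is 1.52% against 0.155% of all genes, and 5 were higher and 2 lower in DKO, which is 10.6% against 5.23% of all genes. The genes beside Fmr1 on either side (Slitrk2, Slitrk4, Ldoc1, Aff2, Ids and Mamld1) were not called in either comparison.

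Kctd4 (chr14:75955003-75965217) encodes a member of the KCTD family, proteins with a potassium channel tetramerisation domain. Its mRNA in batches 5 to 8 was 36.1, 25.4, 28.9 and 30.3 CPM in WT and 27.6, 22.0, 18.9 and 23.3 CPM in FXS. In S6K1 it was 33.0, 30.1, 27.3 and 26.4 CPM, and in DKO 23.3, 18.5, 17.8 and 19.1 CPM. DKO did not overlap WT or S6K1, but FXS overlapped WT because the batch 5 FXS library was above the batch 6 WT library. The log2 difference from WT was -0.40 ± 0.09 (SE) in FXS and -0.62 ± 0.09 in DKO, negative in 4 of 4 batches each.

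Footprints of Kctd4 passed the test in none of the 3 comparisons with WT. They were 49.9, 50.3, 45.8 and 47.9 CPM in WT (batches 2, 3, 4 and 4) and 51.2 and 49.1 (batch 2), 73.1 (batch 3) and 42.7 and 54.8 CPM (batch 4) in FXS. They were 60.9, 54.2 and 51.4 CPM in S6K1 (batches 1, 2 and 3) and 70.0, 63.6 and 48.0 CPM in DKO (batches 1, 3 and 4). WT was the tightest group, the FXS libraries reached from just below its range to well above it, and the DKO libraries from within it to well above it. The S6K1 libraries were all above the WT libraries, as for 9.91% of genes tested in either direction, but the batch 1 library has no WT partner and the fitted S6K1 difference was 0.00 ± 0.13 (edgeR adjusted p = 0.997). FXS differed from WT by 0.15 ± 0.10 (SE, log2, 95% interval -0.07 to 0.36, adjusted p = 0.653) and DKO by 0.15 ± 0.12 (95% interval -0.11 to 0.41, adjusted p = 0.539). Neither passed.

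Panx2 (chr15:89059057-89073566) encodes pannexin 2, a large-pore channel protein found mainly in the brain. It was the 1 gene of the 5 with more mRNA in both groups lacking Fmr1. Its mRNA in batches 5 to 8 was 117, 144, 144 and 181 CPM in WT and 151, 221, 200 and 226 CPM in FXS. In S6K1 it was 103, 146, 129 and 167 CPM, and in DKO 149, 215, 216 and 201 CPM. The ranges overlapped because batch 5 was lowest and batch 8 highest in WT and S6K1, yet within each batch FXS and DKO were above WT. The within-batch log2 differences ran from 0.32 to 0.62 in FXS and from 0.16 to 0.59 in DKO, and the fitted ones were 0.44 ± 0.07 (SE) and 0.42 ± 0.07.

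The added Panx2 mRNA had no counterpart in footprints that passed a test. Footprints were 10.3, 13.4, 9.27 and 9.67 CPM in WT (batches 2, 3, 4 and 4), and 13.3 and 13.7 (batch 2), 6.47 (batch 3) and 11.3 and 10.96 CPM (batch 4) in FXS. They were 5.76, 10.5 and 9.55 CPM in S6K1 (batches 1, 2 and 3) and 7.08, 7.10 and 8.46 CPM in DKO (batches 1, 3 and 4). FXS libraries surrounded those of WT, and the 3 DKO libraries were below all 4 of WT, as for 16.3% of genes tested in either direction. FXS differed from WT by -0.01 ± 0.18 (SE, log2, 95% interval -0.41 to 0.38, edgeR adjusted p = 0.989), higher in 2 batches and lower in batch 3. DKO differed by -0.30 ± 0.23 (95% interval -0.79 to 0.19, adjusted p = 0.501), and S6K1 by -0.23 ± 0.23 (adjusted p = 0.854).

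**Figure D2:**
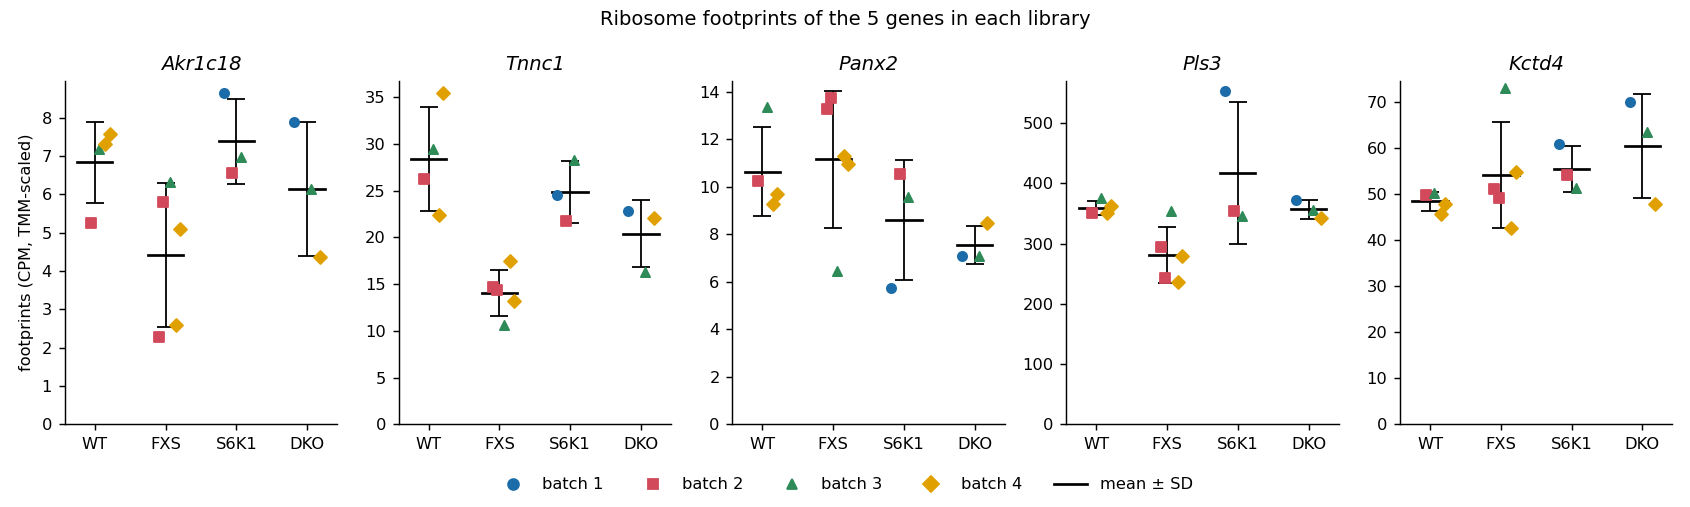
Footprint level (vertical axis, TMM-scaled CPM from 0) of each gene in the 15 footprint libraries, by genotype; symbols mark the batch and black lines the mean and SD of the 4 WT, 5 FXS, 3 S6K1 and 3 DKO libraries. FXS lies wholly below WT for Tnnc1, at 10.6 to 17.4 against 22.3 to 35.5 CPM, and overlaps WT for the other genes.

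Across the 5 genes, then, edgeR called 4 in FXS mRNA (0.155% of the 14215 genes tested) and 5 in DKO mRNA (5.23%), which follows from how they were chosen. Kctd4 was the gene just outside the threshold in FXS mRNA, at an adjusted p of 0.0603, and Pls3 was just inside it, at 0.0377. Kctd4 was called there by DESeq2 (adjusted p = 0.0129) and by edgeR without FXS replicate 4 (0.0466), while DESeq2 gave no adjusted p for Akr1c18 in FXS or DKO mRNA or in FXS TE. The FXS mRNA calls of 3 genes depended on single libraries. Pls3 was not called without WT replicate 1, 2 or 3 or FXS replicate 1, 2 or 3 (adjusted p 0.0616 to 0.213), Panx2 without WT replicate 2 or 3 or FXS replicate 2 (0.0711 to 0.0865), and Tnnc1 without WT replicate 3 or FXS replicate 2 (0.0633 and 0.0696). In DKO mRNA, Tnnc1 was not called without DKO replicate 2 or 3 or WT replicate 3 (0.0541 to 0.0637). Footprints of the same genes were called for 1 of 5 in FXS and 0 of 5 in DKO, where 0.366% of genes were called, 1 of the 5 had an unadjusted p below 0.05 and DESeq2 called 0.

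**Figure D3:**
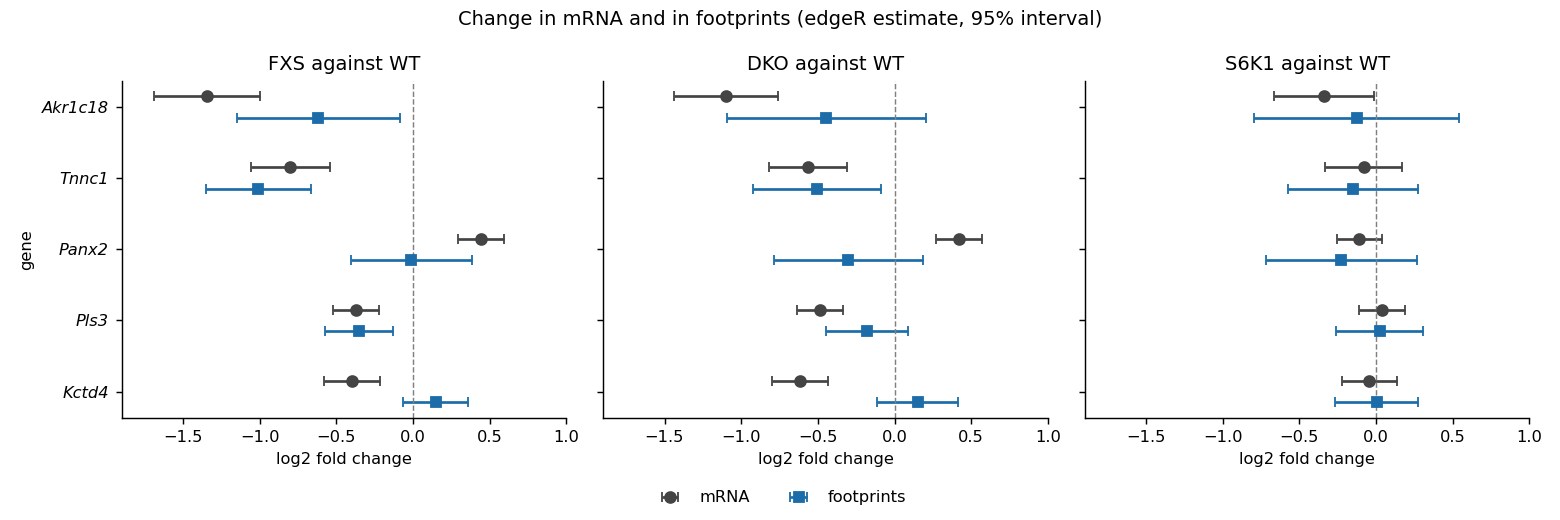
Log2 fold change against WT (horizontal axis) of mRNA (circles) and footprints (squares) for each gene in FXS, DKO and S6K1, as edgeR estimates with 95% intervals. In FXS the footprint and mRNA estimates are close for Tnnc1 (-1.01 and -0.80) and Pls3 (-0.35 and -0.37). They lie apart for Akr1c18 (-0.62 and -1.34), Kctd4 and Panx2. The S6K1 estimates lie between -0.34 and 0.04 in both assays.

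In mice deficient in S6K1 alone, the mRNA of no gene among the 5 passed the test against WT. The S6K1 difference from WT was -0.34 ± 0.16 (SE, log2) for Akr1c18, -0.08 ± 0.12 for Tnnc1, -0.11 ± 0.07 for Panx2, 0.04 ± 0.07 for Pls3 and -0.04 ± 0.09 for Kctd4. By edgeR 0 of 5 were called, with adjusted p from 0.657 to 0.948, where 0.0211% of all genes were called; 1 of the 5, Akr1c18, had an unadjusted p below 0.05, and DESeq2 called 0. Akr1c18 was lower than WT in 4 of 4 batches, by 0.25 to 0.42. The WT libraries of this comparison also served to choose the genes. Footprints of S6K1 against WT were likewise called for 0 of 5 genes (0.00717% of all genes), with 0 at an unadjusted p below 0.05 and 0 by DESeq2.

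Set against S6K1, which carries the same Rps6kb1 deficiency, DKO had mRNA differences in the same directions as against WT. They were -0.75 ± 0.17 (SE, log2) for Akr1c18, -0.48 ± 0.12 for Tnnc1, -0.52 ± 0.07 for Pls3, -0.57 ± 0.09 for Kctd4 and 0.53 ± 0.07 for Panx2. All 5 kept their sign in 4 of 4 batches, and 3 (Akr1c18, Pls3 and Kctd4) did not overlap between the genotypes, as for 3.03% of genes tested in either direction. edgeR called 4 of 5, all but Tnnc1, where 0.387% of genes were called; the DKO libraries were among those that chose the genes, so the count is a description. The call for Akr1c18 was lost when any single library of the comparison other than S6K1 replicate 4 was left out, with adjusted p from 0.0557 to 0.210. Tnnc1 was called by edgeR without S6K1 replicate 4 (0.0421) or DKO replicate 4 (0.0350). DESeq2 called 4 of 5 in this comparison, Tnnc1 among them (adjusted p = 0.0179). In footprints of DKO against S6K1 edgeR called 0 of 5 (0.00717% of all genes), 0 had an unadjusted p below 0.05 and DESeq2 called 0.

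Between DKO and FXS, the genotypes deficient in Fmr1, edgeR called no gene of the 5. In mRNA the log2 difference of DKO from FXS ran from -0.22 ± 0.09 (SE) for Kctd4, lower in 4 of 4 batches, to 0.25 ± 0.18 for Akr1c18, higher in 4 of 4 batches. Of the 5, 0 were called in mRNA (0.0281% of all genes) and 0 in footprints (0.0143%), 1 in each assay had an unadjusted p below 0.05 (Kctd4 in mRNA and Tnnc1 in footprints), and DESeq2 called 0 in each. A missed threshold does not show that the levels were equal.

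The footprint to mRNA ratio placed the 5 genes far apart in WT cortex. This ratio divides the mean footprint CPM by the mean mRNA CPM of a genotype, because the libraries of the 2 assays are not paired, and a gene's length cancels in it. Panx2 had a ratio of 0.0727 (log2 -3.78 ± 0.17, SE), lower than all but 127 of the 13654 genes tested. Pls3 had 2.36 (log2 1.24 ± 0.10) and Kctd4 1.61 (log2 0.68 ± 0.11), which are the 93.4th and 83.6th percentiles. Akr1c18 at 0.961 and Tnnc1 at 0.903 were near the middle, at the 60.3rd and 57.2nd percentiles. So Panx2 had few footprint reads for its mRNA reads, and Pls3 and Kctd4 had many. Whether the 2 assays count reads of each gene equally well was not examined, so the ratio is not a direct measure of ribosome load.

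**Figure D4:**
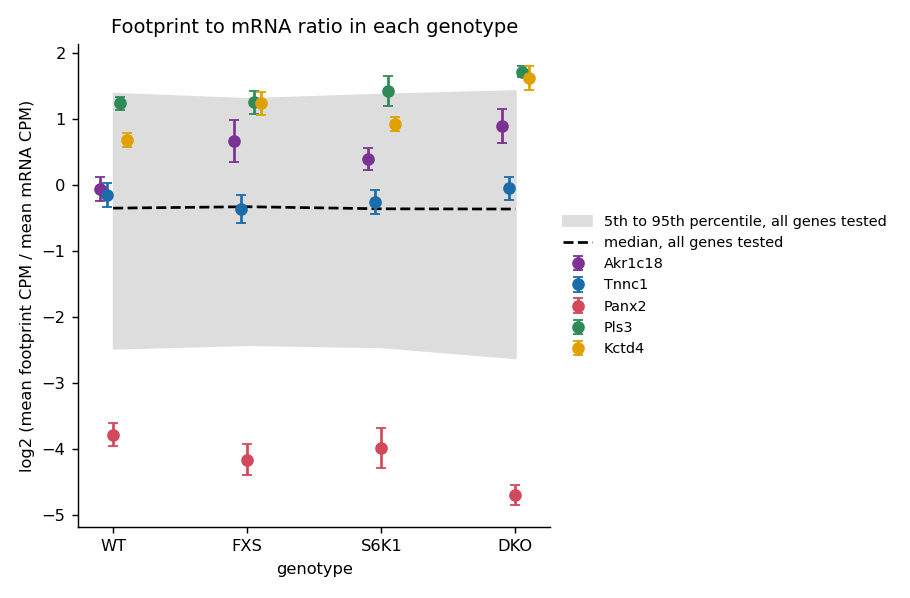
Log2 ratio of mean footprint CPM to mean mRNA CPM (vertical axis) for each gene in the 4 genotypes, with SE bars from the spread of both assays; the grey band is the 5th to 95th percentile of the genes tested and the dashed line their median. Panx2 is below the band in every genotype, Pls3 is above it in S6K1 and DKO, Kctd4 is above it in DKO, and Tnnc1 stays near the median.

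Among genotypes the ratio of Kctd4 took the order WT (1.61), S6K1 (1.90), FXS (2.36) and DKO (3.08). That of Pls3 was 2.36 for WT, 2.38 for FXS, 2.68 for S6K1 and 3.29 for DKO. Akr1c18 had 0.961 for WT, 1.32 for S6K1, 1.59 for FXS and 1.86 for DKO. Kctd4 and Akr1c18 thus had their highest ratios in the genotypes without Fmr1. Panx2 went the other way, from 0.0727 for WT through 0.0633 for S6K1 and 0.0559 for FXS to 0.0386 for DKO. Tnnc1 varied least, from 0.777 in FXS to 0.968 in DKO, and its mRNA and footprint estimates were negative in both. These ratios are not adjusted for batch, and footprint batch 1 held S6K1 and DKO only, so their order is uncertain. With batch in the model, the S6K1 TE difference from WT (log2) was -0.01 for Pls3 and 0.04 for Kctd4. For Akr1c18 the modelled difference was 0.72 in FXS and 0.65 in DKO, the reverse of the order above.

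The mRNA part of these ratios chose the genes, so their differences from WT are a description. In DKO the modelled TE difference from WT was 0.76 ± 0.15 (SE, log2) for Kctd4, -0.73 ± 0.22 for Panx2, 0.65 ± 0.32 for Akr1c18, 0.30 ± 0.14 for Pls3 and 0.05 ± 0.24 for Tnnc1. edgeR called 1 of 5, Kctd4 (adjusted p = 0.0113), where 4.85% of genes were called; 3 had an unadjusted p below 0.05, and DESeq2 called 2, Kctd4 and Panx2 (adjusted p = 0.0181). The Kctd4 call was lost without footprint WT replicate 2 (adjusted p = 0.0570), footprint DKO replicate 2 (0.0748) or the batch term (0.0787). Panx2, at an edgeR adjusted p of 0.0541, was called by edgeR without footprint DKO replicate 1 (0.0374), footprint WT replicate 1 (0.0278), footprint WT replicate 3 (0.0366) or mRNA DKO replicate 4 (0.0443). The authors' deposited table gives a TE log2 fold change of 0.78 for Kctd4 in DKO, with an adjusted p of 0.0461, and of -0.70 for Panx2, with 0.192.

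In FXS the TE differences were 0.54 ± 0.13 (SE, log2) for Kctd4, 0.72 ± 0.30 for Akr1c18, -0.47 ± 0.19 for Panx2, -0.22 ± 0.22 for Tnnc1 and 0.01 ± 0.13 for Pls3. By edgeR 0 of 5 were called (0.0952% of all genes), 3 had an unadjusted p below 0.05, and DESeq2 called 1, Kctd4. Kctd4 was called by edgeR without footprint FXS replicate 4 (adjusted p = 0.0453). The authors' deposited table gives Kctd4 a TE log2 fold change of 0.53 in FXS with an adjusted p of 0.476. In S6K1 all 5 TE differences lay between -0.11 and 0.22, 0 were called (0.0293% of all genes), 0 had an unadjusted p below 0.05 and DESeq2 called 0. The TE differences of DKO from S6K1 ran from -0.61 ± 0.23 for Panx2 to 0.72 ± 0.15 for Kctd4; edgeR called 0 of 5 (0.00732% of all genes), 3 had an unadjusted p below 0.05 and DESeq2 called 1, Kctd4. Those of DKO from FXS ran from -0.26 ± 0.22 for Panx2 to 0.29 ± 0.14 for Pls3, with 0 of 5 called (0.0146% of all genes), 0 at an unadjusted p below 0.05 and 0 by DESeq2.

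Other genes of the pathways around the 5 were taken from lists of relatives and partners. In FXS mRNA the median log2 difference was -0.0090 for the steroid list, -0.14 for troponins and EF-hand proteins, 0.029 for channels, 0.078 for actin-bundling proteins and 0.010 for KCTD genes, beside -0.0090 over all genes. In DKO mRNA the list medians ran from -0.036 for KCTD genes to 0.057 for actin-bundling proteins, beside -0.0033 over all genes. The counts of called genes that follow stand beside 0.155% of all genes called in FXS mRNA and 5.23% in DKO mRNA. Of 23 tested genes of steroid synthesis and metabolism besides Akr1c18, 0 were called in FXS mRNA by edgeR, and 2 rose in DKO mRNA, Paqr9 (log2 0.51, adjusted p = 0.00790) and Pgrmc1 (0.23, adjusted p = 0.0451), both linked to progesterone signalling at membranes. Among 27 troponin, tropomyosin and neuronal EF-hand genes, Tpm2 and Pvalb fell in FXS mRNA, by 0.64 and 0.60. In DKO Tnnt1, Tpm2 and Pvalb fell, by 0.62, 0.55 and 0.39, and Necab3 rose (0.27). Tnnt1 mRNA had similar estimates in FXS (log2 -0.70, edgeR adjusted p = 0.0832) and in S6K1 (-0.71, adjusted p = 0.391), where it was not called. Tnnt1 encodes the tropomyosin-binding troponin subunit, Tpm2 a tropomyosin and Pvalb the calcium buffer parvalbumin, which also marks a class of interneurons. Pvalb was the 1 of 8 inhibitory neuron markers called in each comparison, and the median log2 difference of the 8 was -0.0033 in FXS (4 above 0) and 0.058 in DKO (5 above 0).

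Of 18 pannexin, connexin and related channel genes tested, 0 were called in FXS or DKO mRNA by edgeR. Panx1, the nearest relative of Panx2, differed from WT mRNA by -0.06 in FXS (adjusted p = 0.854) and -0.16 in DKO (adjusted p = 0.323). In footprints the oligodendrocyte connexin Gjc3 fell in FXS by 0.65 (adjusted p = 0.0323) and in DKO by 0.93 (adjusted p = 0.0139), and Gjb1, another connexin of these cells, fell in DKO by 0.96 (adjusted p = 0.0369), so that 1 of 18 were called in FXS, where 0.165% of all genes were, and 2 of 18 in DKO, where 0.366% were. Over the 18 channel genes the median footprint log2 difference was -0.093 in FXS (5 above 0) and -0.34 in DKO (1 above 0). The medians over all genes were -0.0014 and -0.012. Among 24 plastin and actin-bundling genes, Fscn1 and Camk2b rose in DKO mRNA, each by 0.25, and the plastin relatives Pls1 and Lcp1 were not called. Of 22 tested KCTD genes, Kctd13 rose in DKO mRNA (0.24, adjusted p = 0.0326).

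Markers of cell types moved in some of the same comparisons. In DKO mRNA 2 of 6 excitatory neuron markers rose (Slc17a7 by 0.33 and Tbr1 by 0.28), and 2 of 6 layer 6 markers rose (Tle4 by 0.34 and Ctgf by 0.44), where 5.23% of all genes were called. The TE of the same 4 genes fell in DKO, by 0.63 for Slc17a7, 0.51 for Tbr1, 0.50 for Tle4 and 0.99 for Ctgf, where 4.85% of all genes were called. These 4 were named for their higher DKO mRNA, by which TE is divided, so a lower TE is partly built in. The share over all genes is therefore no measure for them, and their TE values are a description. The median TE difference in DKO was -0.50 over the 6 excitatory and -0.33 over the 6 layer 6 markers, beside -0.018 over all genes; Panx2 likewise had a positive mRNA and a negative TE difference in DKO. The summed mRNA of the 6 excitatory markers was 3413 to 4661 CPM for WT, 3634 to 5159 for FXS, 3310.2 to 4463 for S6K1 and 3646 to 5329 for DKO. Summed mRNA of 4 blood markers was 1169 to 1780 CPM for WT, 387 to 1701 for FXS, 974 to 2582 for S6K1 and 668 to 991 for DKO. Summed mRNA of 5 choroid plexus markers ranged from 5.20 to 588 CPM over all libraries. The median mRNA log2 difference of 5 hippocampus markers was -0.0022 in FXS (2 above 0) and -0.20 in DKO (0 above 0). That of 5 thalamus markers was -0.13 in FXS and -0.43 in DKO (1 above 0 in each). By edgeR 0 markers of either region were called in mRNA. In footprints 1 of 5 oligodendrocyte markers, Cnp, fell in FXS (0.165% of all genes called) and in DKO (0.366%), and the sum of the 5 was 1532 to 1982 CPM for WT, 1059.97 to 1502 for FXS, 1156 to 1403 for S6K1 and 1042 to 1082 for DKO. The part of these shifts in the values of the 5 genes was not tested.

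For each gene the 3 genes with the most similar mRNA pattern were found by Pearson correlation of batch-centred log2 CPM over the 16 mRNA libraries, which share the genotypes used to choose the 5. For Akr1c18 they were Snrpa1 (r = 0.92), Cry1 (0.92) and Fmr1 (0.91), for Tnnc1 Akr1c18 (0.90), Phf10 (0.89) and Rangrf (0.87), and for Pls3 Fmr1 (0.94), Mrps9 (0.92) and Snrpa1 (0.92). For Kctd4 they were Gsta4 (0.93), Pkp4 (0.92) and Fmr1 (0.91), and for Panx2 Sh2b3 (0.96), Neurl1a (0.95) and B3gat1 (0.95). Over the 15 footprint libraries, which took no part in that ranking, the same pairs ranged from 0.83 for Panx2 with Neurl1a to -0.76 for Tnnc1 with Phf10. Fmr1 footprints had r = 0.72 with Pls3, 0.63 with Akr1c18 and -0.49 with Kctd4.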

How the data were processed

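Cortex of 4 genotypes was measured by polyadenylated mRNA sequencing (16 libraries) and ribosome profiling (15 libraries). The deposited count tables hold whole reads per gene for each library; the submitters' processing notes name cutadapt 2.0, Bowtie2, TopHat2, RSEM and mm10 without roles. The annotation, read filters, strand setting and treatment of reads shared between genes are not given in the sources used here. The authors' deposited comparison tables give log2 fold changes with p-values and adjusted p-values, a mean signal of normalized counts over samples and a test score, and only their fold changes and adjusted p-values are quoted, named as such.

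From the counts, edgeR 4.0.16 in R 4.3.3 (glmQLFit and glmQLFTest, filterByExpr, TMM, Benjamini-Hochberg adjustment over all genes tested, threshold 0.05) was fitted per assay with genotype and batch, and for TE jointly over both assays with batch nested in assay. Batch numbers come from the labels; replicate numbers follow accession order and pair nothing. Tests were checked on simulated counts. Alternatives were RLE scaling, no low-count filter, DESeq2 1.42.0, no batch term and each library left out in turn. The 5 genes and the pathway and marker lists were chosen with earlier results of these data known; a few marker genes are not reported here and were left out of their lists. Named besides them are Fmr1, Rps6kb1, the 3 genes most correlated with each gene, called list members or nearest relatives, and up to 3 tested X-linked neighbours on each side of Pls3 and Fmr1. Promoter sequences and gene positions are from RefSeq GRCm38.p6. In motif and likeness searches nothing was tested. Depth limits precision most for Akr1c18, with 37 to 256 reads per library.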

Additional observations from a re-analysis of the deposited data

Results flagged for a closer look

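In 1 of 30 combinations of gene, assay and genotype, a sample stood far from the others of its group by Dixon's criterion, which chance alone meets in about 1 in 20 groups. This was the WT footprint library of batch 2 (replicate 1), with 5.25 CPM of Akr1c18, against 7.19 to 7.57 CPM in the other 3 WT libraries. Without it, the Akr1c18 footprint difference of FXS from WT was -0.73 (log2, edgeR adjusted p = 0.465).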

How the results depend on the processing

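A comparison named by 1 genotype is against WT. Counts of genes called varied more than the fold changes of the 5 genes did. With RLE scaling, FXS had 42 mRNA and 2 TE calls, and DKO against S6K1 had 126 mRNA calls. With no low-count filter, mRNA gave 35 calls in FXS and 8 in DKO against FXS, and TE gave 3 in FXS. DESeq2 called 204 genes in FXS, 5 in S6K1, 354 in DKO against S6K1 and 28 in DKO against FXS mRNA. In footprints it called 114 in FXS, 290 in DKO, 37 in S6K1, 21 in DKO against S6K1 and 6 in DKO against FXS, and in TE 154, 1169, 14, 33 and 6 in the same order.

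No replicate block was used other than batch, since replicate numbers only name samples; without the batch term, mRNA calls were 2 in FXS, 2 in DKO, 0 in S6K1, 1 in DKO against S6K1 and 0 in DKO against FXS. Without that block, footprint calls were 1 in FXS and 6 in DKO, and TE calls were 1 in FXS, 2 in DKO and 0 in the other 3 comparisons. Of the mRNA calls for the 5 genes, those for Akr1c18 against WT were kept without it; the rest were lost.

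Leaving out 1 library at a time, mRNA calls ranged from 2 to 86 in FXS, 71 to 1093 in DKO, 0 to 3 in S6K1, 5 to 392 in DKO against S6K1 and 0 to 5 in DKO against FXS. Footprint calls ranged from 1 to 39 in FXS, 2 to 103 in DKO, 1 to 3 in S6K1, 1 to 3 in DKO against S6K1 and 1 to 4 in DKO against FXS. TE calls ranged from 1 to 33 in FXS, 8 to 1096 in DKO, 1 to 12 in S6K1, 1 to 3 in DKO against S6K1 and 1 to 2 in DKO against FXS.

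For single genes, 784 of 875 values kept their direction and side of the threshold (on direction alone where DESeq2 gave no adjusted p), 42 lost a call, 13 gained one and 36 changed sign, none of these last from a called value. With no filter the Kctd4 footprint difference of S6K1 was -0.0034, and without the batch term that of Akr1c18 was 0.11 and the Panx2 footprint difference of FXS 0.062. Leave-one-out log2 values that crossed 0 ran in mRNA from -0.020 to 0.074 for Pls3 in S6K1 and -0.084 to 0.047 for Panx2 in DKO against FXS. In footprints of S6K1 they ran from -0.39 to 0.0021 for Tnnc1, -0.38 to 0.14 for Panx2, -0.095 to 0.20 for Pls3 and -0.14 to 0.12 for Kctd4. Panx2 footprints ran from -0.15 to 0.22 in FXS, -0.39 to 0.038 in DKO and -0.26 to 0.076 in DKO against S6K1. Pls3 footprints ran from -0.36 to 0.017 in DKO against S6K1, and Kctd4 footprints from -0.060 to 0.15 in DKO against FXS. In TE, Tnnc1 ran from -0.079 to 0.20 in DKO and -0.047 to 0.34 in DKO against S6K1, and Pls3 from -0.073 to 0.084 in FXS. The causes were not tested.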

Other observations

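Outside the 5 genes, 13 genes besides Fmr1 were called by edgeR in the mRNA of both FXS and DKO in the same direction; they were listed after their values were seen. Of these 9 were higher (Cd99l2, Fbxo41, Islr2, Neurl1a, Pip5k1c, Slc38a7, Slc39a3, Sphkap and Ttbk1) and 4 lower (2700029M09Rik, Cdr2, Pvalb and Tpm2). Pip5k1c encodes a lipid kinase of the synapse and Ttbk1 a tau kinase. Among the 9 higher genes the mRNA log2 differences were 0.30 to 0.49 in FXS and 0.25 to 0.55 in DKO. Their footprint differences were -0.10 to 0.42 in FXS and -0.30 to 0.23 in DKO, where 7 of the 9 were below 0. Cd99l2 was the 1 of the 13 whose footprints were called, in FXS (log2 0.42, edgeR adjusted p = 0.0461), and 0 of 13 were called in DKO footprints. FXS and DKO share the WT libraries, so the 2 comparisons are not independent.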
